A study of Rattus norvegicus with 6 samples.

Results

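The genes described here encode the nuclear-encoded subunits of respiratory complexes II, III and IV and of ATP synthase (complex V), together with cytochrome c, which carries electrons from complex III to complex IV. They were chosen by symbol: Sdha, Sdhb, Sdhc, Sdhd, Cyc1, Cycs and every symbol that begins with Uqcr, Atp5 or the stem of a numbered cytochrome c oxidase subunit (Cox4 to Cox8), without pseudogene or placeholder names. This gave 50 of the 40456 genes in the deposited table, of which 4 belong to complex II, 9 to complex III, 1 is cytochrome c, 18 carry a complex IV name and 18 an ATP synthase name. A total of 46 passed edgeR's filter on low counts, and the other 4 (Cox4i2, Cox6b2, Cox8c and Atp5hl1) had at most 3 counts in any library.

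Poly-A RNA was sequenced from H9c2 cells, an established line of rat cardiac myoblasts labelled wild type. All 6 libraries came from cells differentiated for 5 days at low serum with 1 µM retinoic acid, and all received 25 nM of a locked nucleic acid gapmer by lipofection for 24 h. The control group (3 libraries) received a negative control gapmer, and the knockdown group (3 libraries) a gapmer that targets Tug1, a long non-coding RNA. Gapmers are antisense oligonucleotides that bring RNase H to the RNA they pair with. The 2 designed oligonucleotides, which are the only labelled difference between the groups, read 5′ to 3′ as follows.
Tug1 gapmer: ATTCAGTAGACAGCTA
negative control gapmer: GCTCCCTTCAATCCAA

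Total counts ran from 12978548 to 13544337 per library, and after scaling 1 CPM (the unit of level here, a count scaled to library size) stood for 12.9 to 13.8 counts. The labels do not say whether the libraries of a group came from separate cultures, so p-values measure the spread between these libraries, which may be technical. Values in every library are listed below in the order of replicates 1 to 3. Counts of Tug1 itself were 713, 672 and 718 (control) against 164, 152 and 165 (knockdown), with a log2 change of -2.19 (edgeR SE 0.0786, adjusted p 4.39e-16), so the targeted RNA followed the labels. The labels call the cells cardiomyocytes. Of 10 cardiomyocyte markers, 7 (Myh6, Myh7, Tnni3, Nppa, Myl7, Ryr2 and Nkx2-5) had at most 4 counts in any library, whereas 9 of 10 skeletal myoblast or myotube markers were expressed. The summed skeletal markers went from 821 to 824 CPM in controls to 1223 to 1271 CPM after knockdown, with 8 higher and 1 lower in edgeR's test. The summed cardiomyocyte markers, nearly all Tnnt2, went from 337 to 372 CPM to 394 to 443 CPM. The 6 fibroblast markers, mostly Col1a1 and Col3a1, summed to 28785 to 29699.5 CPM and 27346 to 29353 CPM, with 2 higher and 2 lower, and 4 endothelial markers summed to at most 0.529 CPM in any library. The part of these shifts in the results on subunit genes was not tested.

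Oxidative phosphorylation passes electrons from NADH and succinate along membrane complexes to oxygen and uses the proton gradient so formed to drive ATP synthase. Complex II is also an enzyme of the tricarboxylic acid cycle and the only complex of the chain whose subunits are all nuclear-encoded. Complexes III and IV and ATP synthase combine nuclear subunits with subunits encoded in mitochondrial DNA, which were not analysed here. Heart and skeletal muscle depend strongly on this pathway and use muscle forms of some complex IV subunits.

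After Tug1 knockdown most of these genes changed little, and complex II was the complex in which every subunit gene rose. Of the 46 tested members, 16 were higher and 8 lower at an edgeR adjusted p under 0.05, and 22 did not pass. Among all 14216 tested genes, 30.8% were called higher and 30.9% lower, and 61.7% in either direction, so the members' share of 34.8% higher lay near the background and their share of 17.4% lower lay below it. The median change (log2) was 0.05 over the members and 0.00 over all tested genes, and the median absolute log2 fold change was 0.13 over the members against 0.34 over all tested genes. Fold changes ran from -0.27 for Uqcrq to 0.73 for Cox8b. Cox8b alone changed by 0.5 or more on the log2 scale, a size that 4825 of all tested genes had. The groups' libraries did not overlap for 14 members that were higher and 8 that were lower, against 33.0% and 32.6% of all tested genes. With the members at a median of 124 CPM and all tested genes at 23.9 CPM, the median standard error was 0.055 for members and 0.0871 for all, so small differences could be called here.

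**Figure D1:**
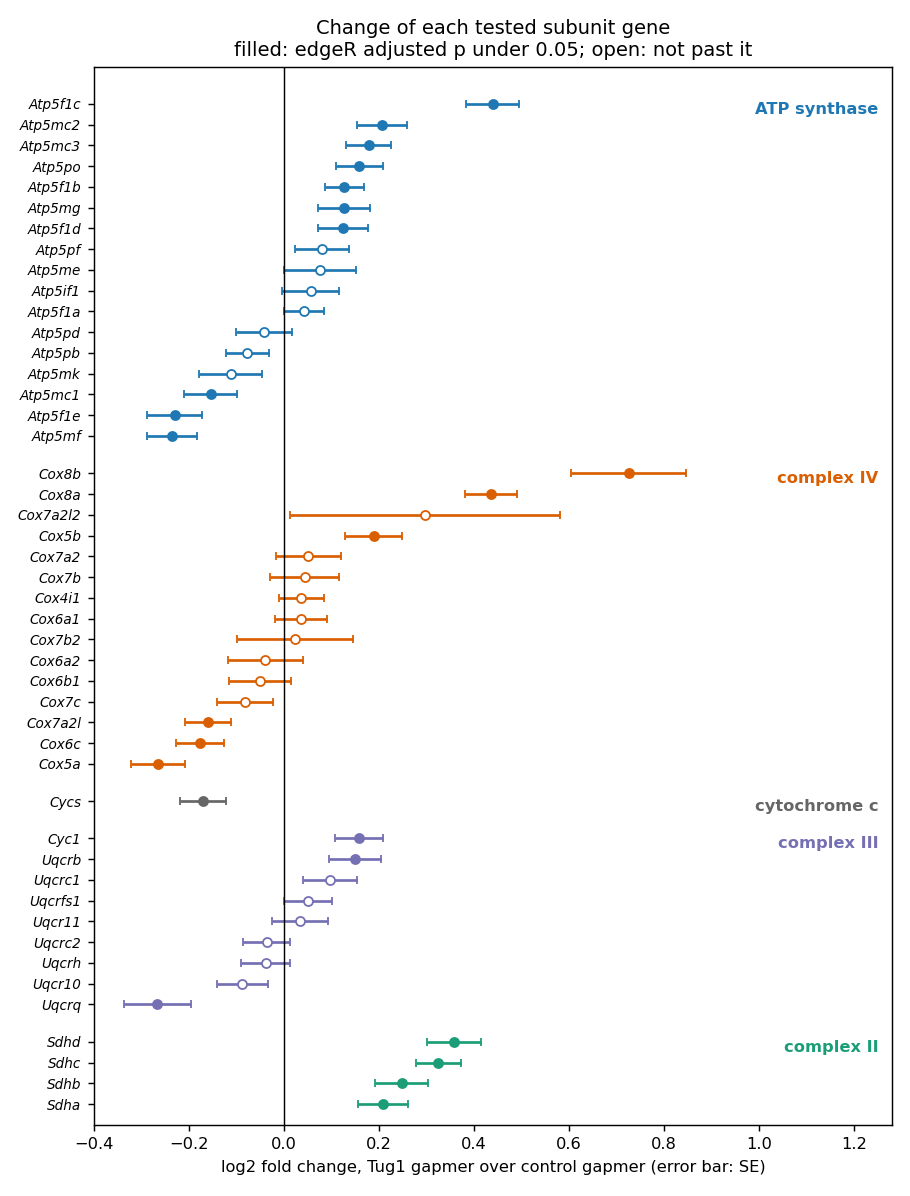
Log2 fold change (Tug1 gapmer over control gapmer, x axis) of each of the 46 tested subunit genes, grouped by complex. Points are edgeR estimates with their SE, filled where the adjusted p was under 0.05 (16 higher, 8 lower) and open for the 22 others; the 4 complex II genes all lie right of 0.

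Knockdown replicate 3 stood apart from the other knockdown libraries for these genes. It was the lowest knockdown library for 35 of 46 tested members and lay below its group mean for 42, with a median log2 deviation of -0.07 over the members and of 0.00 over all tested genes. For most of the complex I genes compared below it was also the lowest knockdown library, so this trait was not particular to the members. The share of all tested genes with knockdown replicate 3 lowest is not given here. The other knockdown libraries had median deviations of 0.05 (replicate 1) and 0.03 (replicate 2), and the control libraries lay between -0.01 and 0.03. Without knockdown replicate 3, 17 members were higher and 7 lower. The share of all tested genes called in that fit is not given here, so these counts cannot be set against a background.

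The genes of complex II, succinate dehydrogenase, rose together, by 15.6% to 28.1%. Sdha, the flavoprotein subunit that oxidises succinate, had 123, 112 and 127 CPM in the 3 control libraries and 139, 138 and 141 CPM in the 3 knockdown libraries. Sdhb, which carries the iron-sulfur clusters, had 68.7, 72.6 and 70.7 CPM in control cells and 81.5, 88.0 and 82.2 CPM after knockdown. The membrane anchor genes Sdhc and Sdhd, whose products bind haem and ubiquinone, rose further than the catalytic ones in point estimate, a difference that was not tested. Sdhc had 137, 138 and 139 CPM in control cells and 175, 171 and 173 CPM after knockdown. Sdhd had 65.9, 64.2 and 68.8 CPM in control cells and 88.6, 83.3 and 82.9 CPM after knockdown. For each of these genes every knockdown library lay above every control library, which also held for 33.0% of all tested genes. The log2 fold changes were 0.21 for Sdha (SE 0.0529, edgeR adjusted p 0.0016), 0.25 for Sdhb (SE 0.0558, 0.000519), 0.33 for Sdhc (SE 0.0467, 2.36e-06) and 0.36 for Sdhd (SE 0.0561, 7.95e-06). Each was called higher, against 30.8% of all tested genes, and stayed so under all 16 alternative settings. The summed level of the complex was 396 ± 9.39 CPM in the control group and 481 ± 2.76 CPM in the knockdown group (SD, n = 3), or 122% of the control level, and knockdown replicate 3 (479 CPM) was close to replicates 1 (484 CPM) and 2 (480 CPM).

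**Figure D2:**
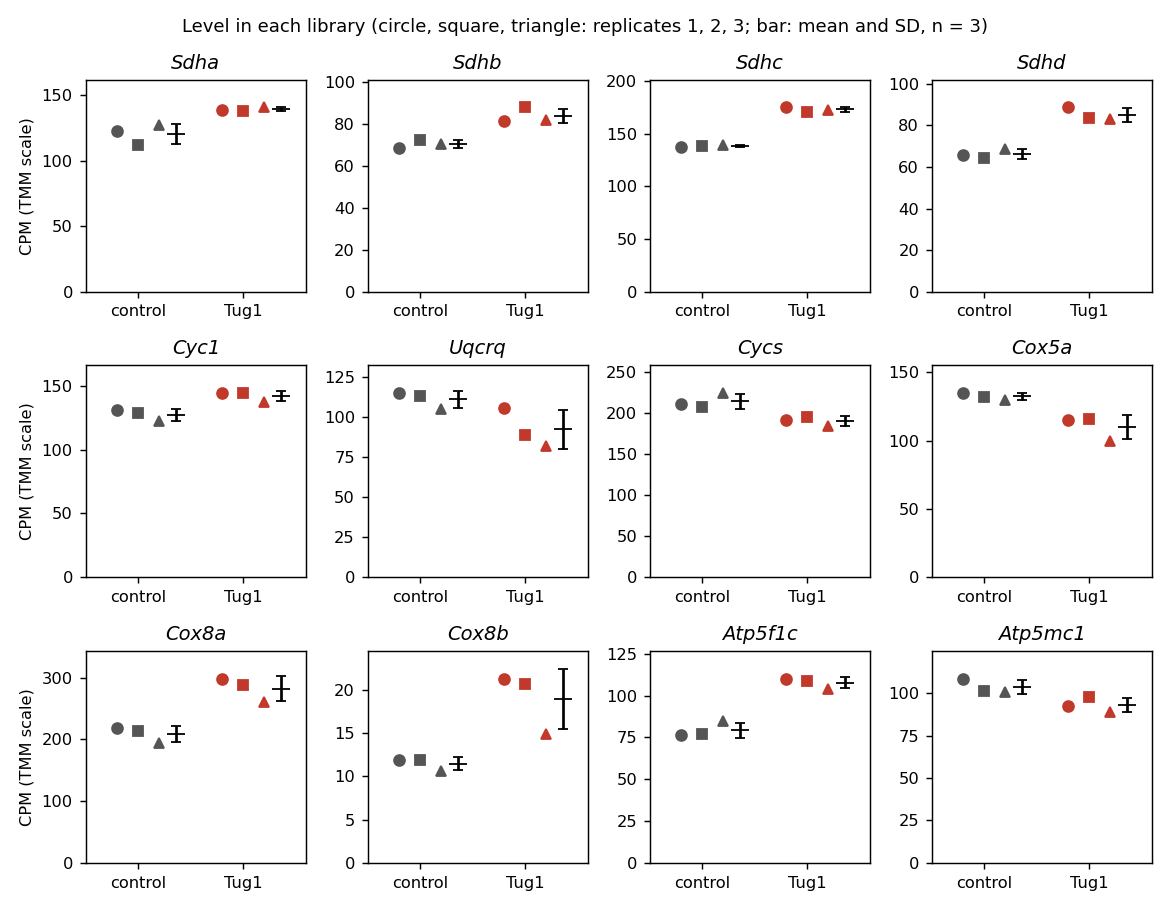
CPM on the TMM scale (y axis, from 0) in each library for 12 subunit genes; grey symbols are control libraries, red symbols knockdown libraries, and bars give the group mean and SD (n = 3). The 4 Sdh genes, Cyc1, Cox8a, Cox8b and Atp5f1c have all knockdown libraries above all control libraries, Cycs, Cox5a and Atp5mc1 all below, and Uqcrq overlaps.

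The stretches of 150 bases before the RefSeq start of Sdha, Sdhc and Sdhd are shown because the complex II genes moved together, in rat assembly GRCr8, 5′ to 3′ on the gene's strand. Capitals mark letters of the motifs that were searched: GCATGCGC (NRF1), ACTTCCGG and its 6-letter part CCGGAA read on the other strand (ETS factors such as GABPA), AAGATGGC (YY1), GGGCGG (SP1), TGACGTCA (CRE) and CACGTG (E-box), on both strands.
Sdha, chr1:30764403-30764552, plus strand: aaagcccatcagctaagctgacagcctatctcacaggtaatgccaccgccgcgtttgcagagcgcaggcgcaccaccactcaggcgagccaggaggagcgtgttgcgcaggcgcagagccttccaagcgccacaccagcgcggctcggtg
Sdhc, chr13:86098026-86098175, minus strand: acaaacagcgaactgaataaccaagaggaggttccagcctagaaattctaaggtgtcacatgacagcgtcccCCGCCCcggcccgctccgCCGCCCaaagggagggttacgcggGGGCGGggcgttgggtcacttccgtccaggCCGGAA
Sdhd, chr8:59850642-59850791, minus strand: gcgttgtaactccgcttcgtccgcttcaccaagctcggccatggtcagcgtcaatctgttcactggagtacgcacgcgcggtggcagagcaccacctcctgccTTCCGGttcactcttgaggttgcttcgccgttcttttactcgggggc
NRF1 and GABPA are transcription factors known to act at many genes of oxidative phosphorylation. In these stretches CCGGAA stood before Sdhc and Sdhd, GGGCGG before Sdhc, and no letters were marked before Sdha. Over the whole RefSeq window of 300 bases (250 before the start and 50 after), available for 40 tested members, CCGGAA was present in 18 members (45.0%), against 27.7% of the 10732 tested genes with a window and 15.0% of all 33469 windows. ACTTCCGG, which contains it, was present in 5 members (12.5%, against 8.15% of tested genes and 3.81% of all windows). GCATGCGC was present in 7 members (17.5%, against 5.02% and 2.47%) and AAGATGGC in 7 (17.5%, against 5.53% and 3.17%). GGGCGG was present in 16 members (40.0%, against 60.3% and 33.1%), CACGTG in 4 (10.0%, against 9.38% and 6.42%) and TGACGTCA in 2, Sdhb and Cox8a (5.0%, against 3.16% and 1.83%). Among the 14 called-higher members with a window, 6 held CCGGAA and 4 held GCATGCGC, against 12 and 3 of the 26 other members. These are matches of letters, given as a description. For 14 of the 40 members, Sdhb among them, the window's start lies inside the gene's span in the RefSeq gene table, so the bases before it are partly or wholly within the gene. The median GC content of the windows was 56.0% in members and 60.7% in tested genes.

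Complex III passes electrons from ubiquinol to cytochrome c, and of its 9 genes 2 rose, 1 fell and 6 did not pass. These shares of 22.2% higher and 11.1% lower lay below the 30.8% and 30.9% of all tested genes. Cyc1, which encodes the catalytic cytochrome c1, had 131, 129 and 122 CPM in the 3 control libraries and 144, 144 and 137 CPM in the 3 knockdown libraries, without overlap. edgeR put its log2 change at 0.16 (SE 0.0503, adjusted p 0.00926). Uqcrb, a small subunit at the ubiquinone site, had 103, 97.1 and 97.5 CPM in control cells and 116, 109 and 104 CPM after knockdown, again without overlap. The edgeR estimate on the log2 scale was 0.15 (SE 0.0545, adjusted p 0.0205), and it was not called without control replicate 2 (0.13), control replicate 3 (0.14) or knockdown replicate 1 (0.11). Uqcrq, another small subunit, had 115, 113 and 105 CPM in control cells and 105, 89.0 and 81.9 CPM after knockdown, so knockdown replicate 1 lay within the control range. The log2 difference between groups was -0.27 (SE 0.0698, adjusted p 0.00212 by edgeR), and it was called lower in every alternative. The core subunit genes Uqcrc1 (0.10, SE 0.0563) and Uqcrc2 (-0.04, SE 0.0497; 0.02 with library totals), the Rieske protein gene Uqcrfs1 (0.05, SE 0.0506) and the small subunit genes Uqcr11 (0.03), Uqcrh (-0.04) and Uqcr10 (-0.09) did not pass. Uqcrc1 passed without knockdown replicate 3 (0.15) and with library totals (0.15). Uqcr11 was at -0.01 without knockdown replicate 1. The number of changed complex III genes was 2 to 4 when a library was left out. The summed level of complex III was 1083 ± 10.6 CPM in the control group and 1093 ± 43.3 CPM in the knockdown group (SD, n = 3), with overlapping libraries.

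Cycs encodes cytochrome c, which also triggers apoptosis when it leaves mitochondria. It had 211, 207 and 224 CPM in the 3 control libraries and 191, 195 and 184 CPM in the 3 knockdown libraries, with every knockdown library below every control library. edgeR put its log2 change at -0.17 (SE 0.048, adjusted p 0.00373), but with an offset for gene length, described below, it was 0.02 and not called. Cycs is known for many processed pseudogenes, and how reads that match several places were counted is not given in the sources used here.

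Complex IV, cytochrome c oxidase, reduces oxygen to water. Its catalytic core is encoded in mitochondrial DNA, and the nuclear genes supply the surrounding subunits. Of 15 tested members, 3 rose (Cox8b, Cox8a and Cox5b), 3 fell (Cox5a, Cox6c and Cox7a2l) and 9 did not pass. The shares of 20% higher and 20% lower lay below the 30.8% and 30.9% of all tested genes.

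The rises in complex IV were led by the genes of its smallest subunit, subunit 8. Cox8a, the form found in most tissues, had 218, 214 and 194 CPM in the 3 control libraries and 299, 288 and 260 CPM in the 3 knockdown libraries. The edgeR estimate on the log2 scale was 0.44 (SE 0.0546, adjusted p 3.24e-07), a rise of 35.3%. Cox8b, the heart and skeletal muscle form, had 11.9, 11.9 and 10.6 CPM in control cells and 21.3, 20.6 and 15.0 CPM after knockdown. The log2 difference between groups was 0.73 (SE 0.121, adjusted p 1.84e-05 by edgeR), the largest of all tested members, and knockdown replicate 3 lay well below the other knockdown libraries but above all controls. Cox5b, which binds zinc, had 113, 99.4 and 101 CPM in control cells and 126, 120 and 112 CPM after knockdown, with overlap at control replicate 1. edgeR put its log2 change at 0.19 (SE 0.0591, adjusted p 0.00827), and it was not called without control replicate 2 (0.15).

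The stretches of 150 bases before the start of the subunit 8 genes are shown because these genes encode alternative forms of the same subunit and both rose. Capitals have the meaning given above.
Cox8a, chr1:213833624-213833773, minus strand: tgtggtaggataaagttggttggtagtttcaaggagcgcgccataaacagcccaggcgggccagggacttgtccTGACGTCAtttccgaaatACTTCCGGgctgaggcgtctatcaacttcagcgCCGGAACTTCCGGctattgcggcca
Cox8b, chr1:205408274-205408423, minus strand: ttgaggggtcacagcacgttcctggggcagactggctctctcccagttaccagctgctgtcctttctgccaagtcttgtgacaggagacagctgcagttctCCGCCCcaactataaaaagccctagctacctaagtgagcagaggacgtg
The stretch before Cox8a held TGACGTCA once, ACTTCCGG at 2 places and CCGGAA at 1 further place that overlaps the second of these. The stretch before Cox8b held only GGGCGG, read on the other strand.

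Among the complex IV genes that fell, Cox5a, a matrix-side subunit, had 135, 132 and 130 CPM in the 3 control libraries and 115, 115 and 99.8 CPM in the 3 knockdown libraries. The edgeR estimate on the log2 scale was -0.27 (SE 0.0566, adjusted p 0.000306), a call kept in every alternative. Cox6c, a small membrane subunit, had 162, 163 and 159 CPM in control cells and 150, 142 and 136 CPM after knockdown. The log2 difference between groups was -0.18 (SE 0.0498, adjusted p 0.0038 by edgeR). Cox7a2l, which is known for joining complexes III and IV into supercomplexes, had 196, 188 and 203 CPM in control cells and 176, 180 and 169 CPM after knockdown. edgeR put its log2 change at -0.16 (SE 0.0483, adjusted p 0.00651), and it was not called with library totals (-0.11) or with the length offset (-0.11). For each of these genes the groups did not overlap. Cox5a and Cox5b, whose products sit in the same enzyme, moved in opposite directions.

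The remaining complex IV members did not pass or were not tested. Cox4i1, the usual form of the subunit that regulates the enzyme, had 363, 350 and 347 CPM in control cells and 371, 380 and 337 CPM after knockdown, and its groups overlapped (0.04, SE 0.0478, edgeR adjusted p 0.52). Cox6a1, Cox7a2, Cox7b, Cox7b2, Cox6a2, Cox6b1 and Cox7c lay between -0.08 (Cox7c) and 0.05 (Cox7a2) and did not pass. Cox7c passed as lower without knockdown replicate 1 (-0.14). Cox7a2l2, whose symbol marks it as a relative of Cox7a2l, had 43, 35 and 18 counts in controls and 56, 27 and 40 after knockdown and did not pass (0.30, SE 0.284). Its estimate ran from 0.01 without control replicate 3 to 0.56 without control replicate 1. Its reads could be shared with related genes. Cox4i2, the hypoxia-associated form, had 0, 3 and 0 counts in controls and 0, 0 and 2 after knockdown. The testis forms Cox6b2 and Cox8c had 1 and 2 counts over all libraries. These levels are at or under the detection limit of 3 counts per library (0.217 to 0.232 CPM), which covers counting error only, and no fold change is given for them. The summed level of complex IV was 1852 ± 59.8 CPM in the control group and 1895 ± 121 CPM in the knockdown group (SD, n = 3), with overlapping libraries.

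ATP synthase consists of a catalytic F1 head, a rotating ring of c subunits in the membrane, a peripheral stalk and small membrane subunits. Of its 17 tested members, 7 rose, 3 fell and 7 did not pass. The share higher was 41.2% and the share lower 17.6%, against 30.8% and 30.9% of all tested genes. The F1 head, the c ring and the small membrane subunits each held calls in both directions, and the peripheral stalk did not. With the length offset, described below, only the small membrane subunits still did. The number of changed members was 6 without control replicate 1 and 7 to 10 without any other library. In the F1 head, Atp5f1c, the gamma subunit that forms the rotating shaft, had 76.7, 76.9 and 84.6 CPM in the 3 control libraries and 110.3, 109 and 104 CPM in the 3 knockdown libraries. The edgeR estimate on the log2 scale was 0.44 (SE 0.0557, adjusted p 4.01e-07), a rise of 35.6% with no overlap between groups. The gene of the catalytic beta subunit, Atp5f1b, had 1655, 1713 and 1688 CPM in control cells and 1839, 1911 and 1770 CPM after knockdown. The log2 difference between groups was 0.13 (SE 0.0412, adjusted p 0.0105 by edgeR). It was not called without control replicate 1 (0.11) or knockdown replicate 2 (0.10). The gene of the alpha subunit, Atp5f1a, which pairs with beta in the head, had 480, 495 and 480 CPM in control cells and 492, 510 and 497 CPM after knockdown and did not pass (0.04, SE 0.0415, edgeR adjusted p 0.385).

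The smaller F1 subunits moved apart. Atp5f1d, the delta subunit, had 211, 224 and 211 CPM in control cells and 242, 247 and 215 CPM after knockdown. edgeR put its log2 change at 0.12 (SE 0.0524, adjusted p 0.0448), and it was not called without control replicate 1 (0.11), control replicate 3 (0.11), knockdown replicate 1 (0.10) or knockdown replicate 2 (0.09), nor by DESeq2 (0.12, adjusted p 0.0691) or without the filter on low counts (0.11). Atp5f1e, the epsilon subunit, had 135, 128 and 116 CPM in control cells and 111, 109 and 103 CPM after knockdown, without overlap. The edgeR estimate on the log2 scale was -0.23 (SE 0.0578, adjusted p 0.0015), and with the length offset it was -0.06 and not called. The summed F1 head, of which Atp5f1b made the largest part, was at 108% of the control level.

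Among the other ATP synthase genes, Atp5po, the stalk subunit known for conferring oligomycin sensitivity, had 140, 135 and 137 CPM in control cells and 157, 156 and 146 CPM after knockdown. The log2 difference between groups was 0.16 (SE 0.0494, adjusted p 0.00786 by edgeR). The other peripheral stalk genes Atp5pf (0.08), Atp5pd (-0.04) and Atp5pb (-0.08) did not pass. Atp5mf, a small membrane subunit, had 126, 116 and 120 CPM in control cells and 105, 105 and 98.0 CPM after knockdown, with a log2 change of -0.24 (edgeR SE 0.0531, adjusted p 0.00053). Its neighbour in the membrane, Atp5mg, was at 126 ± 4.02 and 137 ± 8.77 CPM (SD, n = 3), with a log2 change of 0.13 (edgeR SE 0.054, adjusted p 0.0472). It was not called without control replicate 1 (0.10), control replicate 2 (0.12), knockdown replicate 1 (0.08) or knockdown replicate 2 (0.13), nor by DESeq2 (0.12, adjusted p 0.0792), with DESeq2's size factors (0.12) or without the filter on low counts (0.12). Atp5me (0.08) and Atp5mk (-0.11) did not pass. Atp5mk, known for the dimerisation of the enzyme, passed as lower without control replicate 3 (-0.18). Atp5if1, the inhibitor that blocks reverse ATP hydrolysis when the gradient collapses, had 68.0, 70.8 and 68.9 CPM in control cells and 76.2, 73.5 and 66.3 CPM after knockdown, with overlap (0.06, SE 0.0598). Atp5hl1, by its symbol a copy-like gene, had 0 counts in every library. The summed ATP synthase genes were at 4107 ± 24.0 CPM in the control group and 4340 ± 164 CPM in the knockdown group (SD, n = 3), and Atp5f1b made the largest part of that sum. The groups did not overlap in this sum, and knockdown replicate 3 (4157 CPM) lay just above the highest control library (4130 CPM).

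The c ring is encoded by 3 genes, Atp5mc1, Atp5mc2 and Atp5mc3, which share the mature protein and differ in the targeting peptide that is cut off after import. Atp5mc1 had 109, 102 and 101 CPM in the 3 control libraries and 92.4, 97.8 and 89.2 CPM in the 3 knockdown libraries. Atp5mc2 had 169, 162 and 157 CPM in control cells and 186, 201 and 175 CPM after knockdown. Atp5mc3 had 206, 200.3 and 196 CPM in control cells and 227, 236 and 219 CPM after knockdown. For each gene the groups did not overlap, and Atp5mc1 fell while its partners rose. The log2 fold changes were -0.15 for Atp5mc1 (SE 0.055, edgeR adjusted p 0.0184), 0.21 for Atp5mc2 (SE 0.053, 0.00177) and 0.18 for Atp5mc3 (SE 0.0468, 0.0021). With the length offset they were 0.02, 0.28 and 0.36, so the direction of Atp5mc1 flipped while it remained the lowest of the 3. Atp5mc1 was also not called with library totals (-0.10), without control replicate 1 (-0.12) or without knockdown replicate 3 (-0.12).

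Ratios between genes that encode alternative forms of the same subunit were compared within each library, which cancels library scaling but not a dependence on gene length. The log2 ratio of Atp5mc1 to Atp5mc3 was -0.92, -0.98 and -0.96 in the control libraries and -1.29, -1.27 and -1.29 in the knockdown libraries. It differed by -0.33, with no overlap. The log2 ratio of Atp5mc1 to Atp5mc2 was -0.63, -0.68 and -0.64 in controls and -1.01, -1.04 and -0.98 after knockdown, a difference of -0.36, again with no overlap. The ratio of Atp5mc2 to Atp5mc3 overlapped between groups, with a difference of 0.03. The log2 ratio of the muscle form Cox8b to Cox8a was -4.20, -4.16 and -4.19 in controls and -3.81, -3.80 and -4.12 after knockdown. It differed by 0.27, or by 0.38 without knockdown replicate 3, whose ratio lay nearest to the controls. Cox6a2, the muscle form of subunit 6a, did not move against Cox6a1 beyond the spread of libraries (-0.08, overlapping), nor did Cox7b2 against Cox7b (-0.02, overlapping). Cox7b2 has a far longer genomic span than Cox7b. With the length offset, described below, the log2 change of Cox7b2 alone was -0.18, and the ratio of this pair is not given with that offset. With 3 libraries against 3, an exact two-sided permutation test cannot give a p below 0.1. Of the 6 pairs, Atp5mc1 against either partner and Cox8b against Cox8a had that smallest p of 0.1 (0.2 after adjustment over the 6 pairs), and the others had exact p from 0.4 to 0.8. The c ring pairs share genes and are not independent. Read sharing between these related genes was not resolved. Cox7a1, an alternative form of Cox7a2, had no entry under that symbol in the deposited table, so that pair was not compared.

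**Figure D3:**
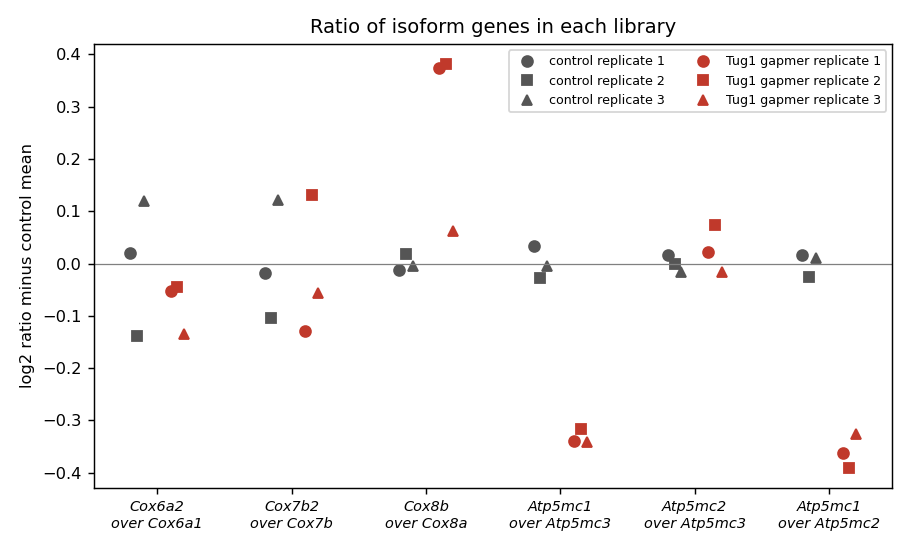
Log2 ratio of 2 isoform genes in each library minus the control mean of that ratio (y axis) for 6 pairs (x axis); grey symbols are control libraries, red symbols knockdown libraries, with a symbol shape for each replicate number. Atp5mc1 against Atp5mc3 and Atp5mc2 lies below the controls in all knockdown libraries, and Cox8b against Cox8a lies above them.

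Changes in these libraries depended on the genomic span of a gene, and the subunit genes are short. The median span in the GRCr8 gene table was 6.75 kb over the tested members and 22.4 kb over all tested genes, and 34 of 46 members lay in the shortest 3 of 10 equal classes of genes by span. In these 3 classes all tested genes had medians of log2 change of -0.21, -0.14 and -0.09, with 14.1%, 18.7% and 22.3% called higher. The members in the same classes had medians of 0.06, 0.04 and 0.08. In the class of the longest genes the median over all tested genes was 0.33.

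**Figure D4:**
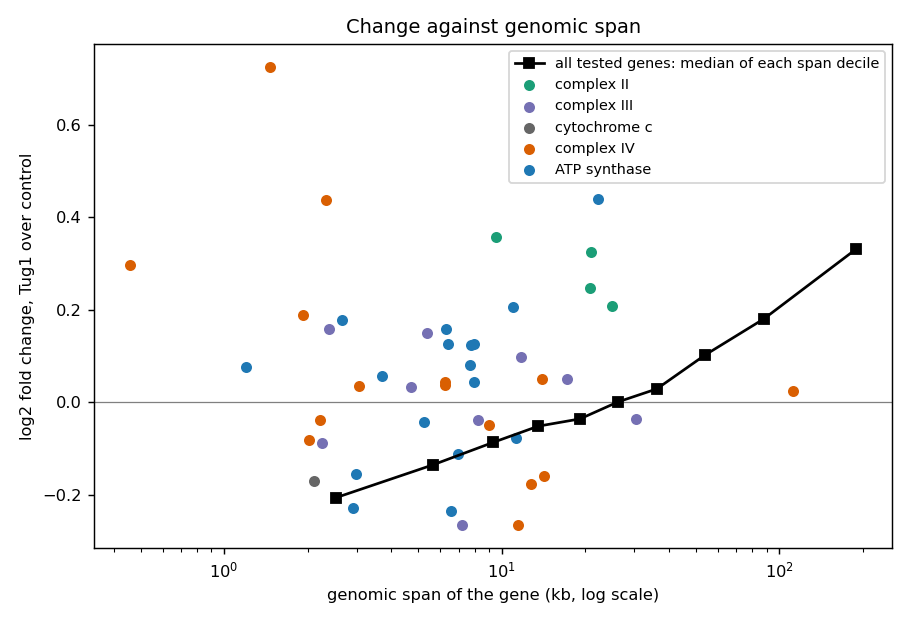
Log2 fold change (y axis) against genomic span in kb (x axis, log scale) for the 46 tested subunit genes, coloured by complex, with black squares for the median of all tested genes in each of 10 equal classes of span. The black line rises from -0.21 to 0.33, and most subunit genes sit above it.

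With an offset that removed this trend from each library, 24 members were called higher and 4 lower, where the same fit called 30.3% of all tested genes higher and 31.8% lower. The median log2 fold change of the members was then 0.16. The value of 44 of 46 members moved up. Complex II kept 4 of 4 genes higher (median 0.31), complex III had 4 higher and 1 lower (0.10), complex IV 5 higher and 2 lower (0.15) and ATP synthase 11 higher and 1 lower (0.21). The genes still called lower were Uqcrq (-0.16), Cox5a (-0.20), Cox6c (-0.12) and Atp5mf (-0.13). Cox4i1 (0.15), Cox6a1 (0.21), Atp5f1a (0.14), Atp5if1 (0.21), Atp5me (0.29), Atp5pf (0.18), Uqcrc1 (0.16) and Uqcr11 (0.17) were called higher with this offset and not in the TMM fit. Using library totals without a composition factor moved the median of all tested genes to 0.06 and gave 19 members higher and 6 lower, where 34.5% and 27.4% of all tested genes were called.

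**Figure D5:**
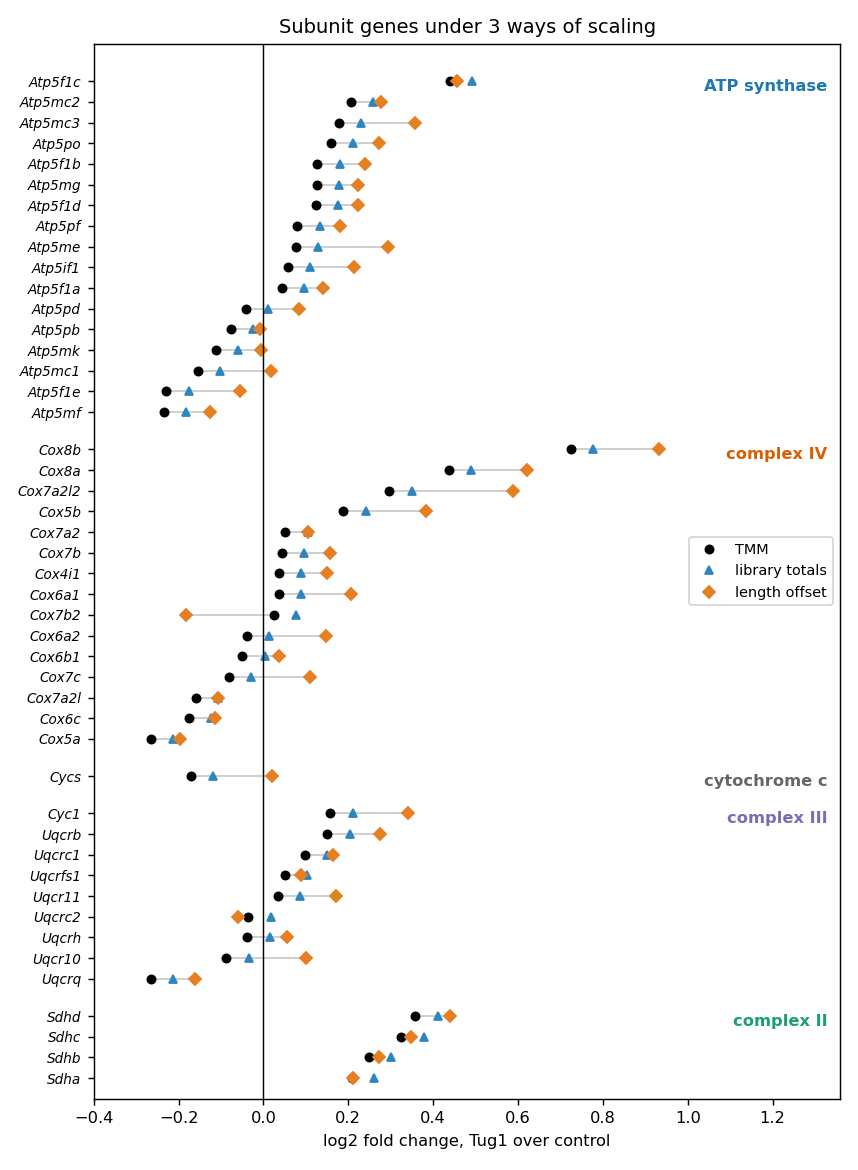
Log2 fold change (x axis) of each of the 46 tested subunit genes with TMM (black circles), library totals (blue triangles) and the length offset (orange diamonds). The 4 complex II genes, Cox8a, Cox8b and Atp5f1c stay right of 0 and Cox5a, Uqcrq, Cox6c and Atp5mf stay left of 0 in all 3 fits. With the length offset 9 members cross 0, and of these only Cycs and Atp5mc1 were called in the TMM fit.

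Assembly factors build the complexes without being part of them. All 40 of the factors found in the table were tested; 11 were higher, 8 lower and 21 did not pass (27.5% and 20.0%, against the 30.8% and 30.9% given above for all tested genes). Their median log2 fold change was -0.01 (0.07 with the length offset and 0.04 with library totals, so its sign depended on the scaling) and their median absolute log2 fold change 0.18, and 9 changed by 0.5 or more on the log2 scale. For complex II, 3 of 4 factors were higher. Sdhaf3, which helps insert the iron-sulfur clusters, had 2.76, 2.71 and 2.47 CPM in control cells and 4.86, 4.44 and 5.44 CPM after knockdown, or a log2 change of 0.89 (edgeR SE 0.191, adjusted p 0.000327). Sdhaf2, which attaches flavin to Sdha, was at 0.24 and Sdhaf4 at 0.35, while Sdhaf1 (0.07) did not pass. For complex III, 3 of 6 factors were higher and Ttc19 (-0.25) was lower. Bcs1l, the translocase that inserts the Rieske protein, had 9.43, 7.97 and 9.02 CPM in control cells and 12.6, 16.0 and 12.8 CPM after knockdown, or a log2 change of 0.64 (edgeR SE 0.124, adjusted p 0.000101).

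For complex IV, 4 of 24 factors were higher and 6 lower (16.7% and 25%, against 30.8% and 30.9% of all tested genes). Taco1, which promotes translation of mitochondrially encoded subunit 1, had 3.45, 2.71 and 3.70 CPM in control cells and 4.86, 4.73 and 5.66 CPM after knockdown, or a log2 change of 0.63 (edgeR SE 0.187, adjusted p 0.00582). Cox20, a chaperone of subunit 2, had 36.4, 35.1 and 34.2 CPM in control cells and 24.7, 19.9 and 21.6 CPM after knockdown, or a log2 change of -0.67 (edgeR SE 0.0828, adjusted p 2.53e-07). The copper-delivery factor Cox11 had 14.9, 11.5 and 15.3 CPM in control cells and 8.99, 7.92 and 9.29 CPM after knockdown, or a log2 change of -0.67 (edgeR SE 0.126, adjusted p 7.85e-05). Another copper chaperone, Sco1, was at -0.34, and Higd1a at -0.46. For ATP synthase, 1 of 5 factors was higher and 1 lower. Tmem242 had 32.1, 31.4 and 33.7 CPM in control cells and 21.1, 18.8 and 20.1 CPM after knockdown, or a log2 change of -0.70 (edgeR SE 0.0794, adjusted p 8.01e-08), whereas Atpaf2, a chaperone of the F1 alpha subunit, was at 0.51. The groups did not overlap for any factor named here with a value in every library.

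For comparison, the 37 genes with a complex I subunit symbol, all tested, had 17 higher and 2 lower, with a median log2 fold change of 0.14, where 30.8% and 30.9% of all tested genes were called. With the length offset 25 were higher, neither of the 2 lower calls held, and the median was 0.24. This symbol group includes Ndufa4, which is now placed in complex IV. The difference from complexes II to V was not tested.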

How the data were processed

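The authors deposited raw whole-number counts per gene for each of the 6 libraries, as the values themselves show, with 0 columns outside these libraries and 0 unnamed entries. FastQC 0.11.7, fastp 0.14.1 and STAR 2.5 are named in the submitters' processing notes. Which genome build, annotation and counting program were used, and how strand and reads with several matches were handled, is not given in the sources used here. Per the labels' protocols, stranded libraries were made from 500 ng of poly-A selected RNA with an integrity number of at least 9.

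Counts of all 40456 genes were filtered with edgeR's expression filter (minimum count 10, total 15), which kept 14216. They were scaled by TMM (factors 0.979 to 1.02) and tested with edgeR's quasi-likelihood test (edgeR 4.0.16, R 4.3.3, prior count 0.125, no block), with Benjamini-Hochberg adjustment over all tested genes and a threshold of 0.05. Standard errors were derived from the F statistic. Library values are CPM on the TMM scale, not corrected for transcript length. Sums over genes and differences in level between genes therefore also reflect transcript length. Isoform pairs needed a mean of 0.5 CPM. Alternatives were DESeq2 1.42.0 size factors and Wald test, library totals, limma-voom (limma 3.58.1), other filters, a threshold of 0.01, a replicate block, each library left out, and an offset for gene length (lowess with span 0.3, log2 deviation against genomic span). The scripts were tested on simulated data. Spans and promoter windows came from RefSeq GRCr8: all 50 members matched by symbol, 42 with a window. All tested members had a span, as did 92.0% of tested genes. Coordinates are given for the printed stretches only, in GRCr8, since the authors' build is unknown. A stretch was not printed where the window's start lies inside the gene's span in the gene table, as for Sdhb.

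Members, lists, motifs and tests were chosen with earlier results of these data known. Named were every member, with library values for complex II, Cyc1, Cycs, detected isoform pairs and the 2 highest and 2 lowest called members of each complex, and the 3 highest and 3 lowest called assembly factors; a few further members and factors are named with a value, chosen after their values were seen.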

Additional observations from a re-analysis of the deposited data

How the results depend on the processing

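Of the 46 tested members, 19 kept direction and call under all 16 alternatives, among them 11 of the 16 higher and 4 of the 8 lower. Over 736 combinations of member and alternative 647 were unchanged and 34 changed sign, with or without a change of call. Without a sign change, 32 lost a call and 23 gained a call. The length offset took the members called lower from 8 to 4 (4 also with the replicate block) and the changed complex III genes from 3 to 5 (5 with the block), and with the block it put the members called higher at 25. The threshold of 0.01 put the changed ATP synthase genes at 6 of 17. At that threshold 25.6% of all tested genes were called higher and 26.2% lower. When a library was left out, the members called higher numbered 13 to 17, those lower 7 to 9, changed genes 4 to 4 in complex II, 2 to 4 in complex III, 5 to 7 in complex IV and 6 to 10 in ATP synthase (6 without control replicate 1), and changed assembly factors 17 to 21. The shares of all tested genes called are not given for the fits with the replicate block or with a library left out. Their counts therefore show only how stable the calls were. Depth limits the members at or under 3 counts. The cause of the other changes was not tested.

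Same-numbered libraries had correlations of their deviations from the group means of -0.0079, 0.041 and 0.037 over the tested genes. These values cannot decide whether a small pairing exists, since counting error also enters the deviations. A fit with the labels' replicate number as replicate block gave 16 members higher and 8 lower, and 20 changed assembly factors instead of 19.

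Of the called members, Cycs and Atp5mc1 changed sign, both only under the length offset (block added or not). Under that offset the sign changed for Cox6b1 0.036, Cox6a2 0.15, Cox7c 0.11, Cycs 0.019, Uqcrh 0.056, Atp5mc1 0.017, Atp5pd 0.084, Cox7b2 -0.18, Uqcr10 0.10. With the block added to the offset it changed for Cox6b1 0.034, Cox6a2 0.15, Cox7c 0.11, Cycs 0.021, Uqcrh 0.056, Atp5mc1 0.017, Atp5pd 0.082, Cox7b2 -0.18, Uqcr10 0.099. With library totals it changed for Cox6b1 0.0027, Uqcrc2 0.017, Cox6a2 0.013, Uqcrh 0.015, Atp5pd 0.011. When a library was left out, values of the members and isoform ratios with a sign change ran as follows: Cox6b1 from -0.12 to 0.036 (sign changed without knockdown 3), Cox6a2 from -0.10 to 0.048 (sign changed without control 1 or knockdown 3), Uqcr11 from -0.012 to 0.10 (sign changed without knockdown 1), Atp5pd from -0.091 to 0.038 (sign changed without knockdown 3), Cox6a1 from -0.011 to 0.097 (sign changed without control 3 or knockdown 1), Cox7b2 from -0.027 to 0.084 (sign changed without control 2 or knockdown 2), Cox7b from -0.038 to 0.095 (sign changed without control 3 or knockdown 1), Cox7b2 over Cox7b from -0.093 to 0.042 (sign changed without control 3 or knockdown 1 or knockdown 3).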
